A study of Homo sapiens with 5 samples.

Results

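Kallikrein peptidases are secreted serine proteases, and 7 of them are described here, KLK5, KLK6, KLK7, KLK8, KLK10, KLK11 and KLK13, given as a list of symbols and looked up among 33538 genes of the count matrices. All 7 were in the files. Counts of unique molecular identifiers (UMIs, 1 for each captured RNA molecule) were read from 5 single-cell libraries of KYSE30-Luc-GFP, a human oesophageal squamous cell carcinoma line that carries luciferase and GFP. The groups were the parental culture and cells taken back from the lungs of NOD SCID mice (NOD.CB17-Prkdc scid/J, aged 4 to 5 weeks) at 6 h or 48 h, or at 2 or 4 months, after injection into the tail vein. Lungs were digested with liberase, mouse cells were depleted with beads and GFP-positive cells were sorted, so the 4 lung libraries hold sorted cells of a single line from hosts that lack functional B and T cells. Cells of several mice were pooled at 6 h, 48 h and 2 months, while the 4-month library came from 1 mouse.

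There was 1 library per timepoint and therefore no replicate. No test was made, and every interval below is a 95% interval for counting error only, exact Poisson for a level and exact binomial (Clopper-Pearson) for a share of cells. A cell was kept if it had 200 to 8000 genes, no fewer than 1000 UMIs and mitochondrial UMIs of 15% or less. The order of time is used throughout for the parental culture first and then the lung libraries, and in that order 9059, 1957, 1149, 3322 and 4499 cells were kept, 19986 in all. Summed UMIs were lowest at 6 h (32540023) and highest in the parental library (204864006), and the median per cell ran from 12979 at 6 h to 39076 at 48 h. A level is given in CPM, the UMIs of a gene in every 1000000 UMIs of all kept cells of a library. It cannot tell fewer expressing cells from less RNA per cell, which is why shares of cells are given as well. Of the 7 epithelial markers (EPCAM, KRT8, KRT18, KRT19, CDH1, KRT5 and TP63), 7 had UMIs in each library, with summed levels of 1614 to 14213 CPM, although KRT5 itself was nearly absent from the parental library. The lowest sum was that of the parental library, whose cells differed in these markers, as described below. Summed markers of other cells stayed low, at 2.37 to 13.6 CPM for fibroblasts, 1.73 to 34.1 for leukocytes, 0.0927 to 0.707 for endothelium, 0.964 to 1.52 for alveolar epithelium and 0.0855 to 0.615 for red cells. The leukocyte sum was highest at 6 h, from 3 of 5 genes, with CD68 at 16.4 and LYZ at 17.5 CPM and no UMI of PTPRC and TYROBP. SFTPA1 had no UMI in any library. All of these markers are human genes, while the cells of the host were mouse cells. The low sums therefore do not show how many mouse cells were present. The part of these markers in the kallikrein values was not tested. Kept cells of different libraries shared 1 to 62 barcode sequences per pair of libraries.

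In stratified squamous epithelium these proteases are made as inactive proenzymes, are released into the space between cells and are activated one by another in a cascade. They are best known for cutting the proteins of desmosomes and so letting the outermost cells shed, and they are held in check by inhibitors such as LEKTI, the product of SPINK5. Several of them are studied as products of carcinomas. The human genes lie side by side in the tissue kallikrein cluster on chromosome 19, which holds 15 genes between positions 50819146 and 51084245 (GRCh38), 13 of them on the minus strand.

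All 7 genes lay on the minus strand. KLK5 (ENSG00000167754, chr19:50943303-50953093) encodes a trypsin-like protease that can activate itself and other kallikreins and stands at the start of the skin cascade. KLK6 (ENSG00000167755, chr19:50958631-50969673) encodes neurosin, also trypsin-like. KLK7 (ENSG00000169035, chr19:50976468-50984099) encodes the chymotrypsin-like enzyme of the stratum corneum, a target of KLK5. KLK8 (ENSG00000129455, chr19:50996007-51002711) encodes neuropsin. KLK10 (ENSG00000129451, chr19:51012739-51020175), KLK11 (ENSG00000167757, chr19:51022216-51028039) and KLK13 (ENSG00000167759, chr19:51055626-51065114) encode further secreted members of the family. A same-strand gene, AC011473.4, covers 6694 of the bases of KLK8 and had 109 UMIs at 4 months, so reads of KLK8 may be shared with it and its level is uncertain. The antisense gene AC011483.1 covers KLK7 and KLK8 and had 4 to 63 UMIs per library.

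The region before the start of the 4 members with the most UMIs is shown first, because these genes differed in when they had UMIs. Each line gives 250 bases before to 50 bases after a RefSeq start on GRCh38, minus strand, 5′ to 3′. KLK5 and KLK6 had UMIs in every library, KLK10 had few before 2 months and KLK11 had none. KLK10 is given for the first of its listed starts and KLK11 for both. Capitals mark matches to a GC box (GGGCGG on either strand, so also CCGCCC).
KLK5, chr19:50952989-50953288: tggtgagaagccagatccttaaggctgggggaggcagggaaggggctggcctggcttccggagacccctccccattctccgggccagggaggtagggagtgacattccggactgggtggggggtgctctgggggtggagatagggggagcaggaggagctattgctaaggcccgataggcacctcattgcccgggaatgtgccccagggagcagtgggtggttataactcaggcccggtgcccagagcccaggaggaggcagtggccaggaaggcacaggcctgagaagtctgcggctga
KLK6, chr19:50969542-50969841: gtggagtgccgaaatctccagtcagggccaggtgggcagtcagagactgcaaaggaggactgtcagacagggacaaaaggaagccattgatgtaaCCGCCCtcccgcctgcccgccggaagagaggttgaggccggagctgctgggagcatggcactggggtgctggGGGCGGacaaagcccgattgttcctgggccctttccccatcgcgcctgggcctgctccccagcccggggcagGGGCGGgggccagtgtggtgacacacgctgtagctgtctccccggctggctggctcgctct
KLK10, chr19:51019812-51020111: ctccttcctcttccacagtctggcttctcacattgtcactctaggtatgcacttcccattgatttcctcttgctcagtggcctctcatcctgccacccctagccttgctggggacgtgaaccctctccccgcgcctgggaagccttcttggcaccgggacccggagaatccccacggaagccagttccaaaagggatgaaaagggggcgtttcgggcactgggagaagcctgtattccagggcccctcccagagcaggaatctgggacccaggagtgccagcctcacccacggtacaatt
KLK11 the first listed start, chr19:51027597-51027896: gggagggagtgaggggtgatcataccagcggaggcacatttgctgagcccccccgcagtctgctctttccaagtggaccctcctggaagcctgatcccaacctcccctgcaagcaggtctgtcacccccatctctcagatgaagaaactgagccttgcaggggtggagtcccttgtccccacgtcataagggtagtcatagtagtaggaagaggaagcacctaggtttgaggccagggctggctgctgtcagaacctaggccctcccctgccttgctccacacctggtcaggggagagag
KLK11 the second listed start, chr19:51026567-51026866: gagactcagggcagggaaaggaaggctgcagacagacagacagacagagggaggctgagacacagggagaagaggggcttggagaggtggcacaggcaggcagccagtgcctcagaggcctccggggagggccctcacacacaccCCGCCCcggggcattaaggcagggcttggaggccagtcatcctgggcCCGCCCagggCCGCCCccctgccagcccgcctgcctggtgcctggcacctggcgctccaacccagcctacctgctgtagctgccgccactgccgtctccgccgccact

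The KLK6 window held 3 GC boxes and 15 CG dinucleotides, and the KLK5 window no GC box and 7 CG dinucleotides. The KLK10 window had no GC box and 9 CG dinucleotides. The KLK11 windows differed from each other, with no GC box and 3 CG dinucleotides at the first listed start, and 3 GC boxes and 11 CG dinucleotides at the second. Over the promoter windows of all genes the median was 14 CG dinucleotides, with quartiles of 4 and 28. RefSeq windows were found for 6 of the 7 genes, 11 windows in all, and KLK8 had none. In these 11 windows 5 motifs were searched on both strands, and 7 windows held a GC box, a motif found in 44.95% of 35116 promoter windows of all genes. Windows of KLK7, of KLK10 and of KLK13 overlap each other, so the same GC box can be counted again. By gene, KLK6, KLK7, KLK11 and KLK13 had a window with a GC box, and KLK5 and KLK10 had none. None held TATAAA (11.5% of all windows), TGANTCA of the AP-1 factors (7.71%), AGAACA of steroid hormone receptors (14.8%) or AACCGGTT of grainyhead-like factors (0.134%). A window without a match lacks those letters, and nothing follows from it about a factor. Reads of this 3′ assay do not show which start was used.

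KLK5 had the most UMIs of the 7 genes at 2 and 4 months. In the parental culture it had 1.24 CPM (1.09 to 1.40). The early lung libraries had 39.2 CPM (6 h, 37.1 to 41.5) and 26.7 CPM (48 h, 25.2 to 28.2), and the late ones 322 CPM (2 months, 318 to 326) and 350.4 CPM (4 months, 347 to 354). The late libraries were the highest and the parental library the lowest, and no interval overlapped that of another library. In order of time it was found in 1.63%, 24.3%, 19.5%, 60.1% and 70.9% of cells. At 48 h a single cell held 287 of its 1247 UMIs, and without that cell the level was 20.5 CPM.

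KLK6 followed another course. It started from 2.35 CPM in the parental culture (2.15 to 2.57) and reached 40.7 CPM by 6 h (38.6 to 43.0). Later libraries had 30.5 CPM (48 h, 28.9 to 32.1), 25.4 CPM (2 months, 24.3 to 26.5) and 58.3 CPM (4 months, 57.0 to 59.7). It was therefore highest at 4 months, but its 6 h level lay above that of 2 months. Its share of positive cells was 3.90%, 30.3%, 40.3%, 23.1% and 24.5% in order of time. At 4 months the level rested on few cells, since the top 1% of cells held 60.6% of its 7320 UMIs and 1 cell held 619.

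KLK11 was a gene of the late libraries. No UMI was found among the kept cells of the parental, 6 h or 48 h libraries, which allows up to 0.0146, 0.0922 and 0.0641 CPM (3 counts per library). The late libraries had 98.3 CPM (2 months, 96.2 to 100.5) and 94.0 CPM (4 months, 92.3 to 95.7). It was found in 50.1% of cells at 2 months (48.4% to 51.8%) and 45.9% at 4 months (44.4% to 47.3%). None of 9059 parental cells had a UMI, which allows a share of up to 0.0331%.

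KLK10 also had most of its UMIs in the late libraries, but was not absent before them. The parental culture had 0.459 CPM (0.371 to 0.562), the 6 h library 0.645 CPM (0.399 to 0.986) and the 48 h library 0.855 CPM (0.611 to 1.16). The 2-month library had 54.2 CPM (52.6 to 55.9) and the 4-month library 30.2 CPM (29.3 to 31.2). The intervals of neighbours among the first 3 values overlapped, while the 2-month level lay above the 4-month level. The share of positive cells was 1.02%, 0.971%, 2.61%, 28.4% and 18.0% in order of time.

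KLK7, KLK8 and KLK13 stayed at or below 2.31 CPM in all 5 libraries. KLK7 had 4, 2 and 4 UMIs in the first 3 libraries, then 1.25 CPM in the 2-month library (1.02 to 1.52) and 2.14 CPM in the 4-month library (1.90 to 2.42). KLK8 had 0.737 CPM in the parental culture (151 UMIs), then 1 and 2 UMIs in the early lung libraries, and later 1.77 CPM (2 months, 1.49 to 2.08) and 2.31 CPM (4 months, 2.05 to 2.59). KLK13 had 24 parental UMIs, none in the early lung libraries, and 1.84 CPM (2 months, 1.56 to 2.16) and 2.18 CPM (4 months, 1.93 to 2.45) in the late ones. The 2-month and 4-month intervals overlapped for KLK8 and KLK13, and not for KLK7. At 4 months 1 cell held 39 of 269 UMIs of KLK7 and another 57 of 290 UMIs of KLK8.

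Depth per cell differed between libraries, and a share of positive cells rises with depth. Each cell was therefore thinned to 5000 UMIs, which left out 254, 306, 105, 162 and 395 shallower cells in order of time. The share of KLK5-positive cells was then 0.602%, 13.5%, 6.13%, 43.99% and 46.7% in order of time. For KLK6 the thinned shares were 1.07%, 14.96%, 9.004%, 8.58% and 9.19%, so that the 48 h library, the highest before thinning, lay below the 6 h library. KLK11 was found in 29.97% of thinned cells at 2 months and 25.5% at 4 months, and KLK10 in 14.3% and 6.97%. Any of the 7 genes was found in 2.17% of thinned parental cells (1.88% to 2.50%) and in 24.8% of those of 6 h (22.8% to 27.0%). The later shares were 13.5% (48 h, 11.5% to 15.7%), 59.2% (2 months, 57.4% to 60.9%) and 57.0% (4 months, 55.5% to 58.6%). Before thinning these shares were 7.68%, 41.7%, 45.8%, 74.5% and 80.0%.

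**Figure D1:**
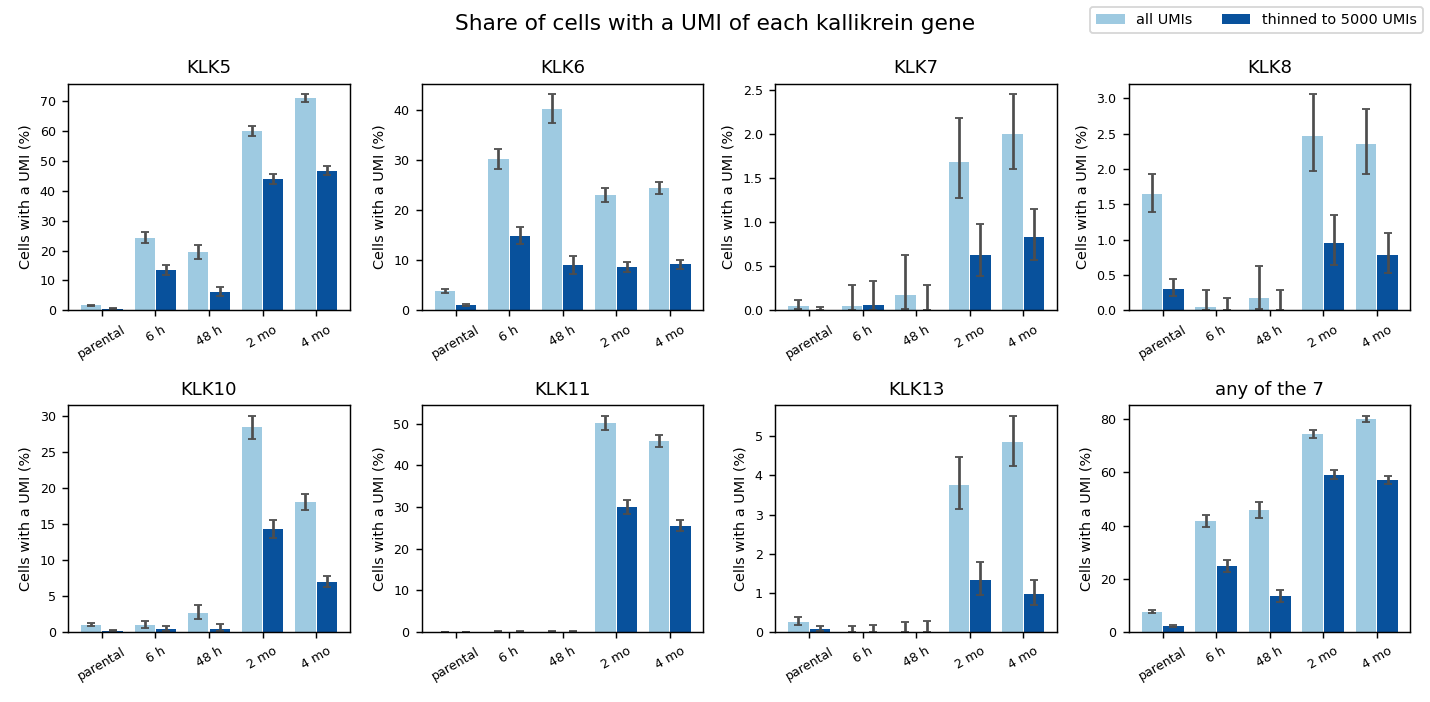
Share of cells with at least 1 UMI of each gene in each library (mo = months), from all UMIs and after thinning each cell to 5000 UMIs, with exact binomial 95% intervals. Each panel has its own vertical axis. For KLK6 the highest bar is 40.3% at 48 h from all UMIs but 14.96% at 6 h after thinning.

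Parental cells were split by 6 of the 7 genes that the study used as a signature of metastasis-initiating cells. A cell was called signature-positive with a UMI of at least 1 of C19orf33, S100A14 and RHOD and of at least 1 of CST6, CD44 and TM4SF1. Of the parental cells 1301 were positive (14.4%) and 7758 negative, with median depths of 24854 and 22768.5 UMIs. In the lung libraries 97.9%, 95.6%, 81.1% and 98.4% of cells were positive in order of time.

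KLK5 and KLK6 were nearly confined to the signature-positive parental cells. KLK5 had 252 UMIs there, or 8.005 CPM (7.05 to 9.06), and 2 UMIs in the negative cells, or 0.0115 CPM. It was found in 11.2% of positive cells and 0.0258% of negative cells. KLK6 had 14.8 CPM (13.5 to 16.2) against 0.0981 (0.0571 to 0.157), with 25.8% and 0.219% of cells. Both genes tested were at least 2-fold higher in signature-positive cells (log2 ratios with 1 CPM added, among genes of 5 CPM or more in either group), as were 12.9% of 10718 genes. Both reached 5 CPM in the positive cells alone, so their calls followed from that minimum and the count adds nothing to the levels above. KLK10, below that minimum, had 1.59 CPM (50 UMIs) in positive cells and 0.254 (44 UMIs) in negative cells. The split was not particular to kallikreins. All 6 epithelial markers tested were higher in positive cells (median log2 ratio of 4.37), as were all 6 basal squamous genes tested (4.04). Over all genes the median was -0.26. Calls among them may also follow from the minimum.

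KLK8 lay on the other side of that split. Of its 151 parental UMIs, 147 were in signature-negative cells, 0.848 CPM (0.716 to 0.997), and 4 in positive cells, 0.127 CPM (0.0346 to 0.325), while negative cells made up 85.6% of the cells. No parental cell had more than 2 UMIs of it. All 24 UMIs of KLK13 and all 4 of KLK7 were in negative cells as well, too few to tell the groups apart at this depth. In the 2-month library, where negative cells were deeper than positive cells (medians 36830.5 and 19544.5 UMIs), KLK5 had 440.4 CPM in positive cells and 2.65 in negative cells, and KLK11 134.5 and 0.549. KLK5 was found in 73.1% of the positive cells and 4.30% of the negative cells, and KLK11 in 61.4% and 1.43%. Whether the few UMIs in these negative cells are background was not tested, and the shares of the 2 groups are not at like depth. Signature-negative cells at 6 h, 48 h and 4 months were few (42, 51 and 71) and shallow (medians of 1931, 1818 and 1552 UMIs), so no comparison was made there.

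From the parental culture to 6 h, KLK5 was 31.7-fold higher (27.6 to 36.4) and KLK6 17.3-fold (15.6 to 19.2). Both genes at or above the minimum were past 2-fold upwards, as were 17.2% of 10852 genes, with 27.8% past it downwards, while the median log2 ratio of all genes tested was -0.29. Both reached the minimum through the 6 h library alone, with 1.24 (KLK5) and 2.35 CPM (KLK6) in the parental culture. For KLK5 the call followed from the minimum. Since nearly all cells at 6 h were signature-positive, the comparison was made with signature-positive parental cells as well. KLK5 was then 4.90-fold higher at 6 h (4.28 to 5.63) and KLK6 2.76-fold (2.48 to 3.07), with 10.6% of 9934 genes past 2-fold upwards and 12.3% downwards. KLK10 had 1.59 and 0.645 CPM, below the minimum level for a call. KLK8, with its UMIs mostly in signature-negative parental cells, had 1 UMI at 6 h.

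Between 6 h and 48 h neither of the 2 members tested, KLK5 and KLK6, passed 2-fold in either direction, where 3.24% of 9605 genes were past it upwards and 1.42% downwards. KLK5 was 1.47-fold lower at 48 h (1.36 to 1.59) and KLK6 1.34-fold lower (1.24 to 1.44). With equal weight of cells the log2 ratios went from -0.54 to -0.95 for KLK5 and from -0.41 to -0.62 for KLK6. Without the 1 cell that held 287 KLK5 UMIs at 48 h, the KLK5 level there was 20.5 CPM, against 39.2 CPM at 6 h. The median log2 ratio of all genes was 0.14.

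Between 48 h and 2 months 3 of the 4 members at or above the minimum were higher, KLK5, KLK10 and KLK11, and none lower, against 12.2% and 13.0% of 10445 genes. KLK10 (0.855 CPM at 48 h) and KLK11 (no UMI at 48 h) reached the minimum through the 2-month library alone. Their calls followed from the minimum, so the count cannot be weighed against those shares. KLK5 was 12.1-fold higher (11.4 to 12.8), KLK10 63.4-fold (46.5 to 88.9), and KLK11 at least 1533-fold higher, taking 3 counts for the 48 h library. KLK6 was 1.20-fold lower (1.12 to 1.28). That small difference turned when each cell was given the same weight, with a log2 ratio of 0.36, and in signature-positive cells, with 0.18. Over the members the UMIs were shared otherwise in the late libraries, with KLK5 at 45.9% and KLK6 at 52.4% of the UMIs of the 7 genes at 48 h, and at 63.8% and 5.03% at 2 months, where KLK11 took 19.5% and KLK10 10.7%.

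Between 2 and 4 months KLK6 was 2.30-fold higher (2.19 to 2.41) and was the member past 2-fold upwards, of 4 tested, against 3.03% of 10082 genes. None was past it downwards, against 9.38% of genes, and the median log2 ratio of all genes was -0.24. KLK10 was 1.79-fold lower (1.72 to 1.87), KLK5 1.09-fold higher (1.07 to 1.11) and KLK11 1.05-fold lower (1.02 to 1.08). The directions of the small differences of KLK5 and KLK11 depended on the setting. The log2 ratio of KLK5 was -0.33 in signature-positive cells and 0.36 after centring on the median gene, and that of KLK11 was -0.51 and 0.18. The call for KLK6 did not hold in signature-positive cells, where its levels were 34.7 and 58.4 CPM and the log2 ratio 0.73. In the same cells KLK10 had 74.2 and 30.3 CPM and passed 2-fold downwards with a log2 ratio of -1.27. The share of KLK6-positive cells after thinning was 8.58% at 2 months and 9.19% at 4 months, with overlapping intervals (7.62% to 9.61% and 8.32% to 10.1%). Against the parental culture all 4 members tested were higher at 4 months, as were 13.4% of 10843 genes, with 30% of genes past 2-fold downwards. All 4 reached the minimum level through the 4-month library alone, and for KLK5, KLK10 and KLK11 the calls followed from it.

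The 8 other tissue kallikreins were quieter, with the exception of KLK1. KLK1, the classical tissue kallikrein that releases kinins, had 0.185 CPM in the parental culture (38 UMIs), no UMI in the early lung libraries, and 15.4 and 34.3 CPM in the late ones, although it lies at the far end of the cluster from KLK11. It was 2.23-fold higher at 4 months than at 2 months (2.10 to 2.38). In signature-positive cells, where it had 20.8 and 34.4 CPM, the difference was within 2-fold. KLK4, known for enamel formation, had 164 parental UMIs, 161 of them in signature-negative cells, and in the lung libraries was found at 2 months alone, with 17 of 19 UMIs in signature-negative cells. KLK2 and KLK3, known from the prostate, had no UMI in any library. KLK9, KLK12, KLK14 and KLK15 had at most 63 UMIs in a library. Of the genes beside the cluster, ACP4 had at most 1 UMI per library, and CTU1 had 21.7, 9.74, 8.46, 11.02 and 5.75 CPM in order of time, and was lower in each lung library than in the parental culture.

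Cells of the late libraries often had several of the genes. At least 2 of the 7 genes were found in 51.7% of cells at 2 months and 50.2% at 4 months, against 13.4% at 6 h and 15.9% at 48 h. After thinning to 5000 UMIs, at least 3 genes were found in 9.21% of cells at 2 months (8.22% to 10.3%) and 7.21% at 4 months (6.44% to 8.05%), in 2 cells at 6 h and in 1 cell at 48 h.

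Among KLK5, KLK6, KLK10 and KLK11, each gene was found more often in cells with another of them than in cells without it. This held after thinning for all 12 ordered pairs at 2 months and all 12 at 4 months, with intervals that did not overlap. The ratio of the shares ran from 1.46 to 3.84 and from 1.73 to 5.80. Each pair was counted in both orders, and a ratio above 1 in 1 order means a ratio above 1 in the other. Pairs of genes outside the kallikreins were not set beside them, so the count is not shown to be particular to these genes. KLK10 and KLK11, which lie next to each other, had the highest ratio at 2 months, with KLK10 in 29.7% of KLK11-positive and 7.73% of KLK11-negative cells. At 4 months it was KLK5 and KLK6, with KLK6 in 16.4% of KLK5-positive cells and 2.83% of KLK5-negative cells. KLK6 went with KLK5 at 6 h as well, in 28.3% of KLK5-positive cells against 12.9%, and at 48 h in 32.8% against 7.45%. Most KLK6-positive cells at 4 months also had KLK5, 83.6% of 377 cells. KLK1 paired with the members in the same way, for example in 29.99% of KLK11-positive and 9.45% of KLK11-negative cells at 4 months. At 2 months 18.9% of cells were signature-negative, and they held 0.151% to 0.292% of the UMIs of KLK5, KLK6, KLK10 and KLK11. Cells that lack all of these genes raise the ratio of shares for each pair. The part of that split in the ratios was not tested. Doublets were not removed, and their part in these shares was not tested.

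**Figure D2:**
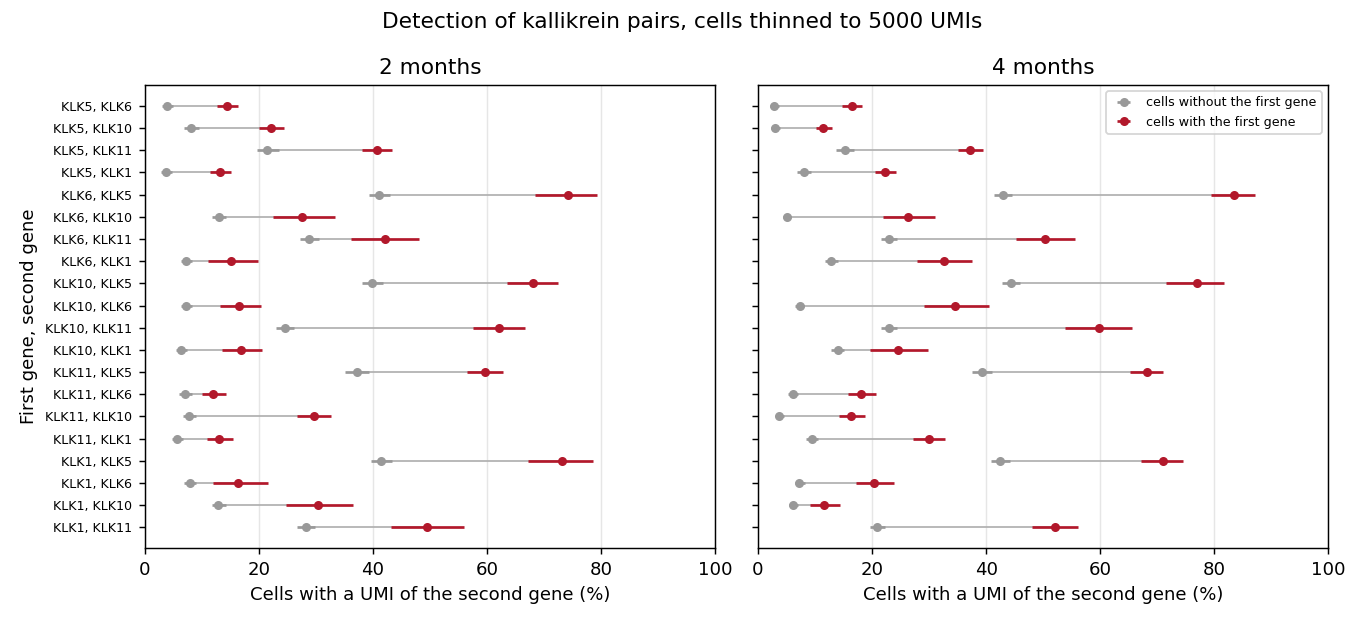
Share of cells with a UMI of the second gene of a pair among cells with and without the first gene, after thinning to 5000 UMIs, at 2 and 4 months, with exact binomial 95% intervals. For each pair shown, the red point (cells with the first gene) lies to the right of the grey point (cells without it).

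Kept cells were ranked by the summed level of squamous differentiation genes, a list of 27 genes in the files that holds no kallikrein, and divided into 3 tertiles. The sum gives most weight to genes with high levels. The list includes CST6, which was also used to define signature-positive cells, and its part in the differences below was not tested. At 2 months KLK5 had 874 CPM in the highest tertile and 53.3 in the lowest, a 16.4-fold difference (15.6 to 17.2), and at 4 months 891 and 90.4, or 9.86-fold (9.54 to 10.2). KLK6 differed 14.04-fold at 2 months and 30.9-fold at 4 months (27.4 to 35.0), with 90.9% of its 4-month UMIs in the highest tertile. KLK10 differed 14.02-fold and 26.7-fold, and KLK11 11.7-fold and 16.3-fold. At 4 months the top 1% of cells held 60.6% of the KLK6 UMIs and 52.7% of the KLK10 UMIs. The intervals do not cover such spread between cells. At 2 months 556 of 628 signature-negative cells were in the lowest tertile, and within signature-positive cells the differences were smaller, 6.42-fold for KLK5, 5.58-fold for KLK6, 5.99-fold for KLK10 and 4.20-fold for KLK11. Within signature-positive cells at 4 months the difference for KLK5 was 9.86-fold. With the mean log-transformed level of the genes as the score, KLK5 differed 19.8-fold at 2 months and 10.6-fold at 4 months in kept cells.

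The early libraries differed from each other in this respect. At 48 h KLK5 had 57.3 CPM in the highest differentiation tertile and 2.95 in the lowest, 19.5-fold (14.2 to 27.4), while at 6 h it had 52.6 and 30.5, 1.73-fold (1.495 to 1.998). A single cell held 287 of the 1247 KLK5 UMIs at 48 h, and the difference was not computed without that cell. With the mean log-transformed level as the score, KLK5 differed 14.3-fold at 48 h (10.7 to 19.5) and 1.55-fold at 6 h. KLK6 differed 3.29-fold at 48 h and 2.38-fold at 6 h.

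Ranking by basal squamous genes (KRT5, KRT14, TP63, integrins and others, 8 genes) gave another picture. At 6 h KLK5 was 3.96-fold lower in the highest basal tertile than in the lowest (13.5 and 53.3 CPM) and KLK6 2.48-fold lower. At 2 months KLK5 was 6.12-fold higher in the highest basal tertile, but 594 of the 628 signature-negative cells were in the lowest tertile, and within signature-positive cells the difference was 2.01-fold (1.94 to 2.08). There KLK6 was 1.44-fold, KLK10 1.11-fold and KLK11 1.41-fold lower in the highest basal tertile. At 4 months KLK5, KLK10 and KLK11 were 1.25-fold, 1.66-fold and 1.11-fold higher, and KLK6 was 1.71-fold lower in the highest basal tertile. With the mean log-transformed level of the genes as the score, the directions of KLK5 and KLK11 turned, to 1.35-fold (1.32 to 1.38) and 1.98-fold lower (1.89 to 2.07). KLK10 was then 1.03-fold higher (0.957 to 1.11) and KLK6 2.76-fold lower (2.61 to 2.91).

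Cycling cells had fewer kallikrein UMIs in the late libraries. In the highest tertile by 10 cycling genes, KLK5 had 115 CPM at 2 months against 636 in the lowest tertile, 5.55-fold lower (5.35 to 5.75), and at 4 months 132 against 591, 4.47-fold lower (4.35 to 4.60). KLK6 was 5.64-fold and 9.01-fold lower, KLK10 5.003-fold and 4.43-fold, and KLK11 6.56-fold and 5.80-fold. Within signature-positive cells at 2 months the differences were smaller, with KLK5 2.61-fold, KLK6 2.82-fold, KLK10 2.43-fold and KLK11 2.95-fold lower. At 6 h the order was the opposite and small, with KLK5 1.30-fold higher in the highest cycling tertile. Cells of the highest cycling tertile were deeper, with medians of 33730 against 14872.5 UMIs at 2 months, and cells of the lowest cycling tertile had no UMI of the 10 genes in either late library.

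**Figure D3:**
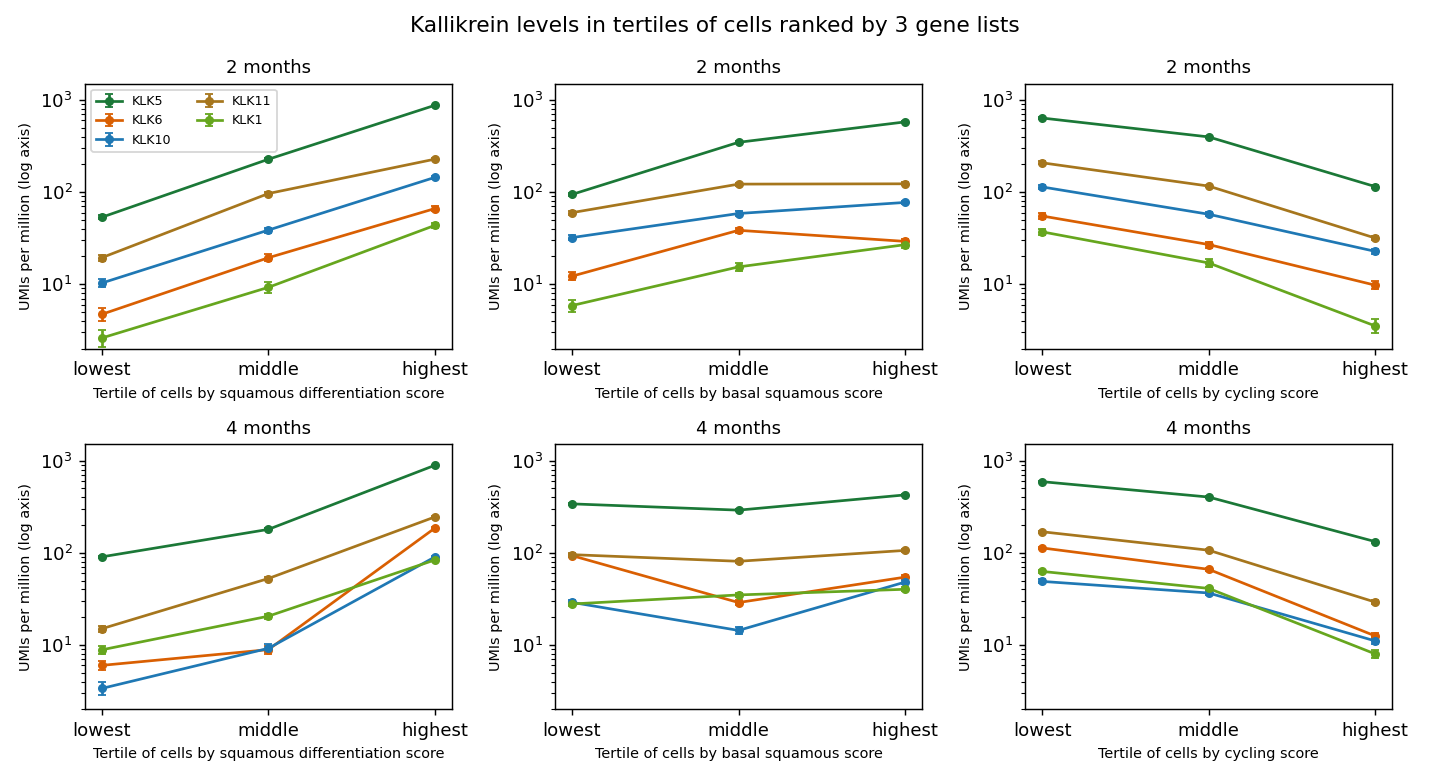
Levels of KLK5, KLK6, KLK10, KLK11 and KLK1 in the lowest, middle and highest tertile of cells at 2 and 4 months, in CPM on a log axis with exact Poisson 95% intervals, for 3 gene lists. All 5 genes are higher with each step of the differentiation score and lower with each step of the cycling score, for KLK5 from 53.3 to 874 and from 636 to 115 at 2 months.

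The genes most like the summed members within a library were named by the mean of Pearson's r across kept cells over the 4 lung libraries. This was done among 9551 genes in at least 5% of cells of each lung library. The sum was nearly all KLK5 and KLK6 at 6 h and 48 h, and KLK5 held 63.8% of it at 2 months and 64.9% at 4 months. Signature-negative cells were included. The highest were CLIC3 (mean r of 0.43), CST6 (0.39), HSPB1 (0.39), LGALS3 (0.39), CD24 (0.36), PERP (0.35), CRABP2 (0.35), SH3BGRL3 (0.35), S100A11 (0.34) and SPRR1B (0.33). CLIC3 ran from 0.29 at 6 h to 0.57 at 2 months. PERP, a desmosome-associated protein, and SPRR1B, a cornified envelope protein, had r of 0.66 and 0.54 at 2 months but -0.07 and -0.03 at 6 h. These are descriptions over cells of the same library that share its depth, and after thinning the mean r of CLIC3 was 0.32. In the late libraries, among 10758 genes, the gene most like KLK5 was CST6 (mean r of 0.59), for KLK6 it was KLK5 (0.49), for KLK10 it was KLK11 (0.45) and for KLK11 it was PERP (0.50).

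Inhibitors of kallikreins were a list of 13 genes, of which 5 or fewer reached the minimum level in any comparison. SPINK5, the source of LEKTI, had 1.04, 8.05, 8.70, 177 and 101 CPM in order of time. SLPI, a secreted inhibitor of leukocyte and epithelial serine proteases, had 0.181, 8.27, 0.171, 280.0 and 482 CPM, and PI3, or elafin, had 13.4 at 2 months and 49.7 at 4 months after 0.0427 CPM or less before. SERPINB6 was at 38.8 to 78.7 in all libraries. From 48 h to 2 months 3 of the 4 inhibitors tested were past 2-fold upwards (SPINK5, SLPI and PI3) and none downwards, as were 12.2% and 13.0% of 10445 genes, with a median log2 ratio of 3.99 against -0.05 over all genes. SLPI and PI3, at 0.171 and 0.0427 CPM at 48 h, reached the minimum through the 2-month library alone. Their calls followed from the minimum, and both enter the median. The UMIs of SPINK5 and SLPI were thus highest in the same libraries as those of KLK5 and KLK11.

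Activating proteases and their inhibitors (10 genes) moved otherwise. Of the 6 tested from 48 h to 2 months, TMPRSS4 was higher and 3 were lower (PLAU, SPINT1 and SPINT2), against 12.2% higher and 13.0% lower among all genes. The median log2 ratio of the 6 was -0.99 against -0.05 over all genes. TMPRSS4, with 1.45 CPM at 48 h, reached the minimum through the 2-month library alone, so its call followed from the minimum. PLAU, urokinase, had 9.23, 568, 505, 42.7 and 147 CPM in order of time. ST14, or matriptase, had 4.46, 42.2, 34.7, 23.4 and 20.1, and PRSS8, or prostasin, 3.92, 57.2, 85.3, 43.7 and 43.3, so both were lower in the late than in the early libraries. Of 10 substrates, 3 of the 7 tested were higher at 2 months than at 48 h and none lower, against the same shares of all genes, with a median log2 ratio of 0.82 against -0.05. They were DSG1, with 2 UMIs at 48 h and 5.28 CPM at 2 months, DSG3, from 10.7 to 41.4, and FLG, the profilaggrin gene, from 0.0855 to 63.9. DSG1 and FLG reached the minimum through the 2-month library alone, so their calls followed from it. DSG2, CDH1 and DSC2 were within 2-fold, DSC2 at 67.2 and 119.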

How the data were processed

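Single-cell 3′ libraries (10x Chromium) of 5 timepoints were measured, 1 sample each. The authors deposited UMI counts per gene and barcode, without normalization, of barcodes called as cells. The submitters' processing notes name Cell Ranger 3 and GRCh38, and the file headers name matrix software 3.0.2, while the annotation release is not given in the sources used here. Of 26712 barcodes, 19986 passed the study's filter. Doublets were not removed. Median depth of 12979 to 39076 UMIs per cell and library totals of 32540023 UMIs or more set the precision, and intervals and floors of 3 counts cover counting error only.

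Levels, shares, ratios (1 CPM added, 5 CPM or more in either group), pairs and tertiles came from scripts under Python 3.11.15 (numpy 2.4.6, scipy 1.17.1, pandas 2.3.3), and figures from matplotlib 3.10.9. Scripts were tested on simulated data. Coordinates came from GENCODE on GRCh38 and promoter windows from RefSeq (GRCh38). Genes outside the 7 were mostly named as the 5 with the highest level in a list, the 10 most like the summed members and the neighbours of the cluster. All 8 other tissue kallikreins were named, as were marker genes with and without UMIs. Genes behind a small count (DSG1, TMPRSS4) were named too and were chosen after their values were seen. The members and lists were chosen with earlier results of these data known. Alternatives were other scalings, weights, filters, thinning depths and added values, and signature-positive cells, which were chosen after seeing the data, as were likeness to single members and tertiles of those cells. One signature gene of the study is not reported here.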

Additional observations from a re-analysis of the deposited data

Results flagged for a closer look

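Barcodes removed by the filter on depth, genes and mitochondrial UMIs enter none of the comparisons above, and in the 4 lung libraries they held kallikrein UMIs above the level of the removed parental barcodes, which was 4.21 CPM over the 7 genes (7 UMIs in 534 barcodes). In order of time the removed barcodes of the lung libraries (654, 924, 2716 and 1898) had summed levels of 24.4, 52.0, 289.6 and 183 CPM. The kept cells of the same libraries had 80.7, 58.1, 504.9 and 539.5 CPM. KLK5 had 156 CPM in the removed barcodes of 2 months, and KLK11 78.6. KLK11, without a UMI in the kept cells of the 3 earlier libraries, had 1 in the removed barcodes of 6 h and none in those of the parental and 48 h libraries. No cause was tested.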

How the results depend on the processing

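No paired analysis was possible because each timepoint is 1 sample. No replicate could be left out for the same reason. Of 1226 values under alternatives, 839 stayed within a tolerance, 387 moved and 0 of those past 2-fold changed direction. The tolerance was counting error of the value reported, or 1.5 times for counts. For likeness it was the standard deviation of r over the 4 lung libraries, a wider limit, and all 20 of those values stayed within it. Ratios of single members that were past 2-fold without regard to level stayed past it in the same direction in 150 of 157 cases. Of the 7 exceptions, 6 came from adding 5 CPM to KLK7, KLK8, KLK10 or KLK13, and the other was KLK6 at 4 months in signature-positive cells.

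Without a minimum level, 6 members in place of 3 were past 2-fold upwards from 48 h to 2 months, against 8.87% of 23698 genes. In signature-positive cells 0 members in place of 1 were higher and 1 in place of 0 was lower at 4 months than at 2 months. The log2 ratio of the summed members at 6 h against signature-positive parental cells (1.68) was 1.56 without mitochondrial and ribosomal protein genes in the total and 1.54 with 5 CPM added. That of 48 h against 6 h (-0.47) was -0.60 after centring on the median gene, -0.55 without those genes in the total and -0.78 with equal weight of cells. That of 2 months against 48 h (3.10) was 3.28, 3.01 with 5 CPM added, 3.59 with equal weight and 3.55 in signature-positive cells. That of 4 months against 2 months (0.10) was 0.34 after centring, 0.029 with equal weight and -0.35 in signature-positive cells, where it turned. The cause was not tested.

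Shares for pairs moved in all 10 cases under alternatives. The share of cells with any member moved in 20 of 30 cases. In order of time the share with any member was 0.541%, 7.20%, 3.31%, 29.9% and 27.0% after thinning to 1000 UMIs, 2.17%, 24.8%, 13.5%, 59.2% and 57.0% at 5000 UMIs, and 1.49%, 19.7%, 25.4%, 63.2% and 64.9% when 2 UMIs were needed. Without the quality filter the lung libraries had 32.6%, 28.4%, 53.3% and 65.9%, and with a mitochondrial limit of 10% it was 49.0% at 48 h. After thinning the 6 h share lay above that of 48 h, the reverse of the order from all UMIs. With 0 to 4 UMIs in a library, differences of KLK7, KLK8 and KLK13 between 6 h and 48 h were not detectable at this depth.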

Other observations

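The squamous differentiation list, which ranked the cells above, also differed between libraries, gene by gene. Of 17 members tested from 48 h to 2 months, 11 were past 2-fold upwards and 1 downwards, against 12.2% and 13.0% of 10445 genes, with a median log2 ratio of 1.96 against -0.05 over all genes. Between 6 h and 48 h 12 genes of the list were tested, so part of the 17 reached the minimum level through the 2-month library alone. Calls that followed from that minimum enter the count and the median, which cannot be weighed against all genes. SPRR1B, a cornified envelope protein, had 0.991, 44.7, 21.3, 386 and 335 CPM in order of time. CSTA, cystatin A, had at most 0.154 before 2 months and then 63.97 and 114 CPM. It reached the minimum level through the 2-month library alone, so its call followed from that minimum. KRT10, a keratin of differentiating epidermis, was nearly level, with 387, 443, 372, 425.5 and 393 CPM. KRT13, a keratin of non-cornifying squamous epithelium, had its highest level at 6 h, 221 CPM, followed by 11.6, 48.2 and 16.9 CPM. CST6, which was in the differentiation list, among the signature genes and closest to KLK5 across late cells, had a course unlike that of KLK5, with 60.8, 423, 480, 52.0 and 115 CPM in order of time. The whole list summed to 1276 CPM at 6 h and 1053 CPM at 48 h, so CST6 and KRT10 held most of that sum in the early lung libraries.

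Of the 8 basal genes, 1 (KRT5) was past 2-fold upwards and 2 downwards from 48 h to 2 months, against 12.2% and 13.0% of genes. Between 6 h and 48 h 7 of the 8 were tested, so at least 1 reached the minimum level through the 2-month library alone. The upward count is therefore not weighed against the share of all genes. ITGA6, a laminin-binding integrin, went from 357 to 86.5 CPM and COL17A1, a hemidesmosomal collagen, from 134.5 to 15.2. KRT5 had 556 CPM at 2 months and 1749 at 4 months, KRT14 170 and 1006, and ITGB4 183 and 318. From 2 to 4 months 3 of 8 (KRT5, KRT14 and COL17A1) were past 2-fold upwards and none downwards, against 3.03% and 9.38% of 10082 genes, while 6 of 10 cycling genes were past 2-fold downwards, with a median log2 ratio of -1.18 against -0.24 over all genes.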
